A study of Mus musculus with 15 samples.

Results

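S100 genes and the scaffold gene Ahnak were followed in mouse biliary epithelial cells after loss of the transcription factor Klf5 was induced. The set was defined by symbol and held 9 genes: S100a1, S100a6, S100a10, S100a11, S100a13, S100a14, S100a16, Ahnak and Ahnak2. Of these, 8 had a row among the 24421 gene symbols of each table, and Ahnak2 was not analysed here. The cells were an established C57BL/6 line from adult bile ducts, carrying ITR-CreERT2 and Klf5flox/flox in all libraries. The tested cells received 4-OH Tamoxifen, which activates the recombinase, and the controls received ethanol, its solvent. There were 4 tamoxifen and 3 ethanol libraries at 12 h, and 4 tamoxifen and 4 ethanol libraries at 24 h, 15 in all. Because every library carries the recombinase and the floxed alleles, tamoxifen, recombinase activity and Klf5 loss cannot be told apart. A single line was used, the cell type in which the recombinase is driven is not given beyond its name, and the series title and design text differ on whether structures were grown in vitro or in vivo.

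S100 proteins are small calcium sensors built from a pair of EF-hand motifs, and most work as dimers that bind a partner protein when calcium rises. S100a10 has lost calcium binding and sits permanently with annexin A2 in a complex at the plasma membrane, where it helps to assemble plasmin activity on the cell surface. Ahnak is a giant scaffold protein that binds this complex and the actin cortex below the membrane. Most S100 genes lie together in a cluster of the genome, next to genes of the epidermal differentiation complex.

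The deposited tables hold, per gene and time, the authors' mean of normalised counts over all libraries and their comparison of tamoxifen with ethanol, and no value per library. Normalised counts summed to 1.39e+07 per library on average at 12 h and to 1.18e+07 at 24 h. Levels per group were therefore computed here from the mean and the fold, and carry no spread of their own. The spread between libraries enters through the standard error (SE) of each log2 fold. The labels do not say whether libraries were separate cultures, so this spread may be technical. In these bulk samples, fewer cells that express a gene and less RNA per cell cannot be told apart. The targeted gene Klf5 stood at 40.9% of its ethanol level at 12 h and at 30.4% at 24 h in the authors' deposited table. All 12 biliary markers examined were above 0 at both times. Krt18 had a mean of 48237 normalised counts at 12 h and 21895 at 24 h. The epithelial adhesion gene Epcam was low at 15.7 and 9.56, as were Onecut1 at 3.55 and 3.22 and Cftr at 2.25 and 12.7. Of fibroblast and stellate markers 7 of 9 were at 0 at 12 h and 6 of 9 at 24 h, of endothelial markers 5 and 4 of 8, and of immune markers 3 and 3 of 7. Summed means of these 3 lists were 29.9, 2.49 and 79.4 normalised counts at 12 h and 11.3, 2.33 and 78.3 at 24 h. Most of the fibroblast and stellate sum was Col1a1, at 29.6 and 10.8, and most of the immune sum was Cd68, at 76.4 and 76.1. Hepatocyte markers, of which 2 of 8 were at 0, summed to 2003 and 731, carried by Apoa1 and Ttr. In the order given, these 4 lists held 1, 0, 2 and 5 genes with an adjusted p at 12 h. At 24 h they held 1, 0, 1 and 3. The authors' Wald test called 0 of them at either time, with 0 genes of the lists under an unadjusted p of 0.05. Of all genes 0.943% were called at 12 h and 12.4% at 24 h, so 0 among so few is near the background. Of 12 biliary markers with an adjusted p at 12 h, 1 fell, Krt7, and 0 rose, beside 0.728% and 0.215% of all genes. At 24 h 2 of 11 fell, Krt19 and Tspan8, and 1 rose, beside 6.52% and 5.9% of all genes. Krt7 was not called at 24 h (adjusted p = 0.250 in the authors' Wald test). Folds of biliary markers were negative in 7 of 12 at 12 h and in 5 of 11 at 24 h, with medians of -0.05 and 0.09. The part of these markers in the results was not tested. The neutrophil genes S100a8 and S100a9 had means of 0.141 and 0 at 12 h and of 0.246 and 0 at 24 h.

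Most of the S100 set lies on chromosome 3 of GRCm38, the assembly that mm10 names. S100a1 runs from 90511034 to 90514392 on the reverse strand, and S100a13 begins 42 bases further on, at 90514435, and runs to 90524581 on the forward strand. S100a14 (90526856 to 90528837), S100a16 (90537254 to 90543151) and S100a6 (90612882 to 90624181) follow on the forward strand. S100a11 (93520488 to 93526287) and S100a10 (93555080 to 93564643) form a second group 2896 kb beyond S100a6. The forward strand of chromosome 19 holds Ahnak, from 8989284 to 9076914. None of the 8 genes shares exon bases with another gene annotated in GENCODE M21. The annotation used for the authors' counts is not given, so whether reads were mixed with a neighbour was not tested. Merged exons span 511 bases in S100a11, 694 in S100a1 and 715 in S100a13, against 19938 in Ahnak.

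RefSeq promoter windows, 250 bases before to 50 after a start on GRCm38.p6, were available for 6 of the 8 genes, 7 windows in all, since S100a16 has 2. Krüppel-like factors are known to bind CACCC and GC-rich boxes, so CACCC and GGGCGG were searched on both strands. The windows below are those of the gene with the smallest p at 24 h, of the S100 gene with the highest level, of S100a13, one of a pair of genes transcribed away from each other, and of the S100 gene with the most GC boxes. Each is written 5′ to 3′ on the strand of its gene, with matches to either motif or its reverse complement in capitals.
Ahnak, chr19:8989034-8989333, forward strand: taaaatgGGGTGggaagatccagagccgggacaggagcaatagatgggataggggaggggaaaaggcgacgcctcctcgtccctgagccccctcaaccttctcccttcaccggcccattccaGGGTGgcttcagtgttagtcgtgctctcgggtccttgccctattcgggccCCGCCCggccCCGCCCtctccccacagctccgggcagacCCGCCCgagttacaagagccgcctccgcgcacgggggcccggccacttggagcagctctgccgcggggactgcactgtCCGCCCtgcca
S100a6, chr3:90612644-90612943, forward strand: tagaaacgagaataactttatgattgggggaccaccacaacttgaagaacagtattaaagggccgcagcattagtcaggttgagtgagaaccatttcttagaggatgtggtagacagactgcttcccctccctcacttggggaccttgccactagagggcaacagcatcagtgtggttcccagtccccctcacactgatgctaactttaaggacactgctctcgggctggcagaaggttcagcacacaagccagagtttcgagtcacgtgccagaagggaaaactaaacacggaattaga
S100a13, chr3:90514185-90514484, forward strand: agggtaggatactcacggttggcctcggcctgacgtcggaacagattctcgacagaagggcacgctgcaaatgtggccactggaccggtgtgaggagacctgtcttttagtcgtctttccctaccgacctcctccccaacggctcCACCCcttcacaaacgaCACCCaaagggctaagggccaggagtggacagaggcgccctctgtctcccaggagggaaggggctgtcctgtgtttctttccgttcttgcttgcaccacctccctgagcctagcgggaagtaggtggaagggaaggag
S100a11, chr3:93520246-93520545, forward strand: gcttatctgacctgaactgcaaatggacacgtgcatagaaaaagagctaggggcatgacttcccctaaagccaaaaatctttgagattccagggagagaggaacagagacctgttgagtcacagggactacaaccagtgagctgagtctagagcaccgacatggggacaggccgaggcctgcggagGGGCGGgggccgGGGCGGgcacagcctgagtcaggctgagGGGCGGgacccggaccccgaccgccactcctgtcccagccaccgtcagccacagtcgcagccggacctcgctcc
The Ahnak window holds 2 CACCC matches and 4 GGGCGG matches, and that of S100a11 holds 3 GGGCGG and no CACCC matches. The window of S100a6 holds neither. The S100a13 window holds 2 CACCC matches and shares 204 bases with that of S100a1, which is transcribed the other way. Both matches lie in the shared bases and are the same sites as 2 of the 4 CACCC matches of S100a1, so these windows are not separate cases. CACCC or its reverse complement occurs in 5 of the 7 windows, from 4 genes, and in 57.5% of all 32851 RefSeq promoter windows. GGGCGG occurs in 3 of the 7 and in 35.7% of all windows. TGANTCA, a pattern that includes the core of AP-1 sites but is wider, occurs in 2 of the 7 and in 7.81% of all windows. Its matches read TGAGTCA in S100a11 and TGAATCA at the second start of S100a16. CCCNNCCC, which can overlap GGGCGG, occurs in all 7 and in 49.5% of windows, and TATAAA in 0 of the 7 and in 13.6%. The CCCNNCCC match of S100a13 is likewise a site of S100a1. The 7 windows were 49.3% to 67.3% GC, beside a median of 52.7% over all windows, and the part of GC content in these counts was not tested. These are letter matches only, in genes picked with their folds known.

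Ahnak and most of the well-detected S100 genes were lower after tamoxifen. At 24 h, 6 genes passed the authors' Wald test at a threshold of 0.05 on the adjusted p, all lower in tamoxifen: Ahnak, S100a10, S100a6, S100a16, S100a13 and S100a11. They are 6 of 7 with an adjusted p, where 12.4% of all 11648 genes with one were called, 6.52% lower and 5.9% higher. At 12 h, 2 of 8 fell, Ahnak and S100a16, where 0.943% of 13044 genes were called, 0.728% lower and 0.215% higher. Under an unadjusted p of 0.05, 4 genes were lower at 12 h and 6 at 24 h, beside 2.92% and 9.08% of all genes with a p. Folds were negative in 7 of 8 genes at 12 h and in 6 of 7 at 24 h, beside 51.4% and 50.1% of genes with an adjusted p. The genes were chosen with these folds known, so the counts, the folds and the authors' p-values describe the set and support nothing about it. The median log2 fold of those with an adjusted p was -0.40 at 12 h and -0.37 at 24 h, beside -0.0062 and -0.0004 over all genes with one. The count of negative folds and the median at 12 h include S100a14, with a mean of 2.54 and a fold of -1.79 (SE 1.24). It has no adjusted p at 24 h, so the medians of the times cover different genes.

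**Figure D1:**
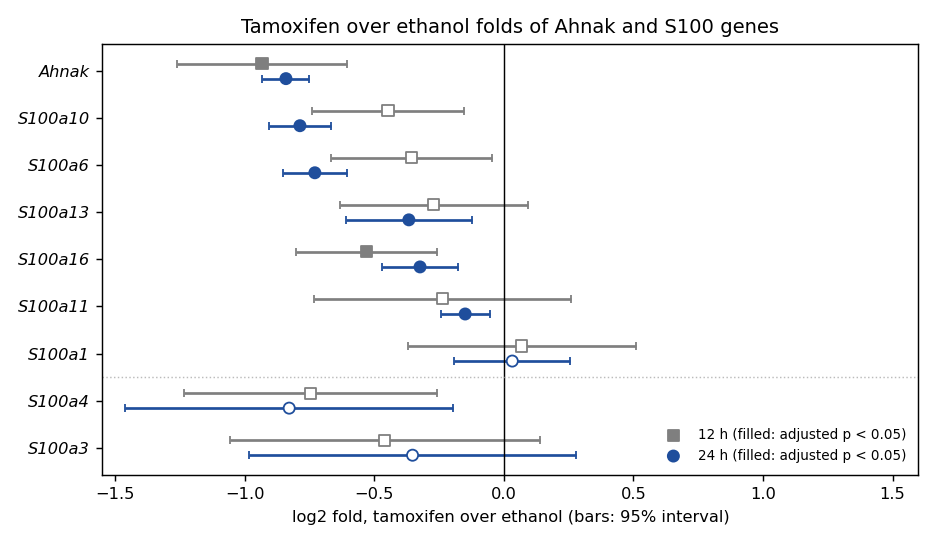
Log2 folds of tamoxifen over ethanol with 95% intervals for 7 genes of the set and, below the dotted line, S100a4 and S100a3, at 12 h (squares) and 24 h (circles). Filled symbols passed an adjusted p under 0.05; 6 genes of the set are filled at 24 h and 2 at 12 h, while S100a1 lies beside 0 at both times.

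Ahnak, the scaffold, was the most changed gene of the set by p. The mean was 13241 normalised counts at 12 h, which corresponds to 9526 in tamoxifen and 18196 in ethanol cells. At 24 h a mean of 19851 corresponds to 14221 in tamoxifen and 25479.9 in ethanol cells. In the authors' deposited table Ahnak fell by 0.93 at 12 h on the log2 scale (SE 0.17, adjusted p = 9.30e-06 in the authors' Wald test). It fell by 0.84 at 24 h in the authors' deposited table (SE 0.05, adjusted p = 2.11e-70 in the same test), to 55.8% of ethanol with a 95% interval of 52.4% to 59.4%. Only 3 of the 11648 genes had a smaller p at 24 h, Klf5 among them. Ahnak was also the 24th most abundant gene at 24 h by mean normalised count, not scaled for length.

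S100a10, the light chain of the annexin A2 complex, was lower to nearly the same degree at 24 h. Its level was 5354 normalised counts in tamoxifen and 7300.2 in ethanol cells at 12 h, and 2459 in tamoxifen and 4244 in ethanol cells at 24 h. In the authors' deposited table the 24 h fold was -0.79 (SE 0.06, adjusted p = 2.81e-34 in the authors' Wald test), or 57.9% of ethanol. The 12 h fold in the authors' deposited table was -0.45 (SE 0.15) and did not pass (adjusted p = 0.178), although its 95% interval, -0.74 to -0.15, lay below 0. The heavy chain gene Anxa2, more abundant still, stood at -0.24 (SE 0.11, adjusted p = 0.644) at 12 h and fell by 0.61 (SE 0.04, adjusted p = 4.99e-57) at 24 h in the authors' deposited table. All 3 genes of the Ahnak, S100a10 and annexin A2 complex were therefore called lower at 24 h, beside 6.52% of all genes. They stood at 55.8%, 57.9% and 65.6% of their ethanol levels. These genes were named with their folds known, so the count describes them and supports nothing about the complex.

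S100a6, or calcyclin, had the highest level per length of the set. It reached 37079.6 normalised counts in tamoxifen and 47449.7 in ethanol cells at 12 h, the 10th most abundant gene of the table, and 6489.7 in tamoxifen and 10762 in ethanol cells at 24 h. In the authors' deposited table it fell by 0.73 at 24 h (SE 0.06, adjusted p = 1.22e-28 in the authors' Wald test), to 60.3% of ethanol. At 12 h the fold in the authors' deposited table was -0.36 (SE 0.16, adjusted p = 0.644). The SEs of S100a6 and S100a10 at 24 h were 1.30 and 1.28 times the running median of genes of similar mean.

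At 24 h the other called S100 genes had smaller folds than S100a10 and S100a6, which was not so at 12 h. S100a16, a widely expressed member, was at 1040.1 normalised counts in tamoxifen and 1504 in ethanol cells at 12 h, and at 516 in tamoxifen and 646 in ethanol cells at 24 h. It fell at both times in the authors' deposited table, by 0.53 (SE 0.14, adjusted p = 0.0198) at 12 h and by 0.32 (SE 0.08, adjusted p = 0.000421) at 24 h. S100a13, which takes part in the release of Fgf1 from cells, stood at -0.27 (SE 0.19, adjusted p = 0.999) at 12 h and fell by 0.37 (SE 0.12, adjusted p = 0.0287) at 24 h in the authors' deposited table. S100a13 had 695 normalised counts in tamoxifen and 839 in ethanol cells at 12 h, and 140.4 in tamoxifen and 181 in ethanol cells at 24 h. S100a11, a partner of annexin A1, had the smallest of the called folds in the authors' deposited table, -0.15 at 24 h (SE 0.05, adjusted p = 0.0209), or 90.2% of ethanol. The authors' deposited table gave -0.24 at 12 h, and the SE of 0.25 was 1.92 times that of genes of similar mean (adjusted p = 0.999). Levels of S100a11 were 7171 in tamoxifen and 8448 in ethanol cells at 12 h, and 2123 in tamoxifen and 2355 in ethanol cells at 24 h, in normalised counts. Short genes as a whole were slightly lower at 24 h: the median fold was -0.10 over 141 genes with under 1 kb of exon and a mean of at least 100 normalised counts at either time. With folds centred on the median of their length class, an alternative added after the data were seen, S100a11 stood at -0.04 (adjusted p = 0.870) and S100a13 at -0.25 (adjusted p = 0.248) at 24 h, and neither passed. Ahnak, S100a10, S100a6 and S100a16 passed with that centring too.

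S100a1, best known from heart muscle, was not called at either time and stood at 105% of its ethanol level at 12 h and 102% at 24 h. Its level was 729 normalised counts in tamoxifen and 695 in ethanol cells at 12 h, and 192 in tamoxifen and 188 in ethanol cells at 24 h. The folds in the authors' deposited table were 0.07 (SE 0.22) and 0.03 (SE 0.11), with adjusted p of 0.999 and 0.904. The 95% interval at 24 h, -0.19 to 0.26, excludes a fold as low as that of Ahnak, S100a10 or S100a6. It overlaps that of S100a13, -0.61 to -0.13, the gene whose promoter window overlaps its own, and the difference between the pair was not tested because both folds come from the same libraries.

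S100a14, known from epithelia, was barely detected. Its means of 2.54 and 0.371 normalised counts amount to about 17.8 counts over 7 libraries at 12 h and 2.97 over 8 libraries at 24 h. A total of 3 reads gives a mean of 0.352 to 0.401 at 24 h. The folds in the authors' deposited table, -1.79 (SE 1.24) and 0.74 (SE 2.32), have intervals that span 0 widely, and a difference was not detectable at this depth.

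**Figure D2:**
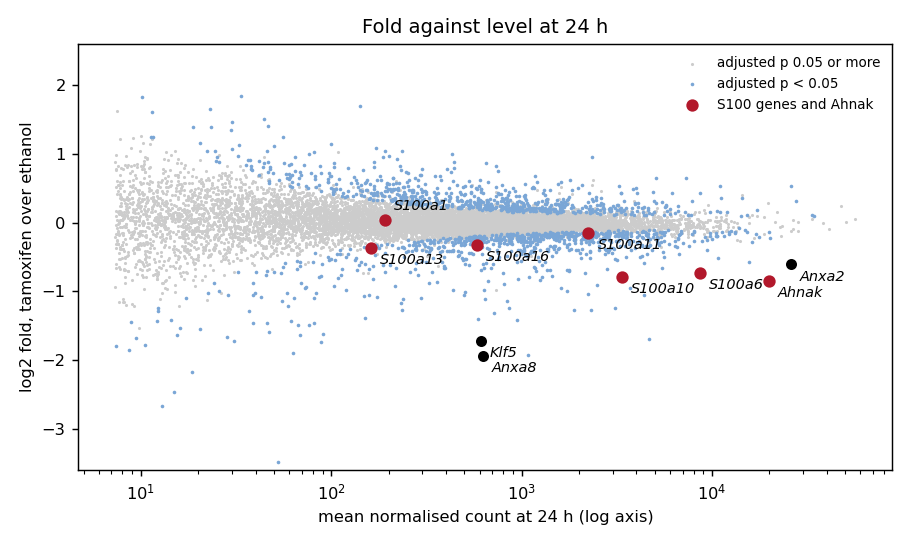
Log2 fold of tamoxifen over ethanol against the mean normalised count (log axis) for the 11648 genes with an adjusted p at 24 h, blue where it is under 0.05. Ahnak, S100a6 and S100a10 lie well below the band of genes of like level, with Anxa2 beside them, whereas S100a1 and S100a11 lie in or next to it.

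Whether folds differed between 12 h and 24 h was asked over all 14981 genes with a p at both times. The authors' folds at 24 h minus those at 12 h were -0.37 for S100a6 (SE 0.17) and -0.34 for S100a10 (SE 0.16), and their unadjusted p were 0.0284 and 0.0361 in a two-sided Wald test of the difference. For Ahnak the difference was 0.09 (SE 0.17), for S100a16 0.21 (SE 0.16), for S100a13 -0.10 (SE 0.22), for S100a11 0.09 (SE 0.26) and for S100a1 -0.04 (SE 0.25). None passed after Benjamini-Hochberg adjustment (adjusted p = 0.9999 for each), where 0.0134% of all genes did and 1.64% were under an unadjusted p of 0.05. The interval for S100a10, -0.66 to -0.02, and that for S100a6, -0.71 to -0.04, leave the size of any deepening poorly fixed. Being called at 24 h and not at 12 h is thus not shown to be a difference in response, and the SEs of all 7 genes above were larger at 12 h than at 24 h, by up to 5.24 times in S100a11.

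Levels were compared between genes per kilobase of merged exon. At 24 h the order of mean normalised counts per kb was S100a6 at 6310.04, S100a11 at 4382, S100a10 at 2765, Ahnak at 996, S100a16 at 359, S100a1 at 274 and S100a13 at 225, with S100a14 at 0.215. At 12 h the first 3 were the same, at 30376, 15105 and 5106 per kb. They were followed by S100a13 at 1058, S100a1 at 1029, S100a16 at 766 and Ahnak at 664. Ahnak thus stood below these S100 genes at 12 h and above them at 24 h. Levels at 24 h over 12 h moved with exon length over the table, as given below. The part of length in this change of order was not tested. The means carry no spread over libraries, and neighbours in the order cannot be told apart where the length decides: with the longest transcript as length, S100a10 stood above S100a11 at 24 h, at 4892 against 4382 per kb.

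**Figure D3:**
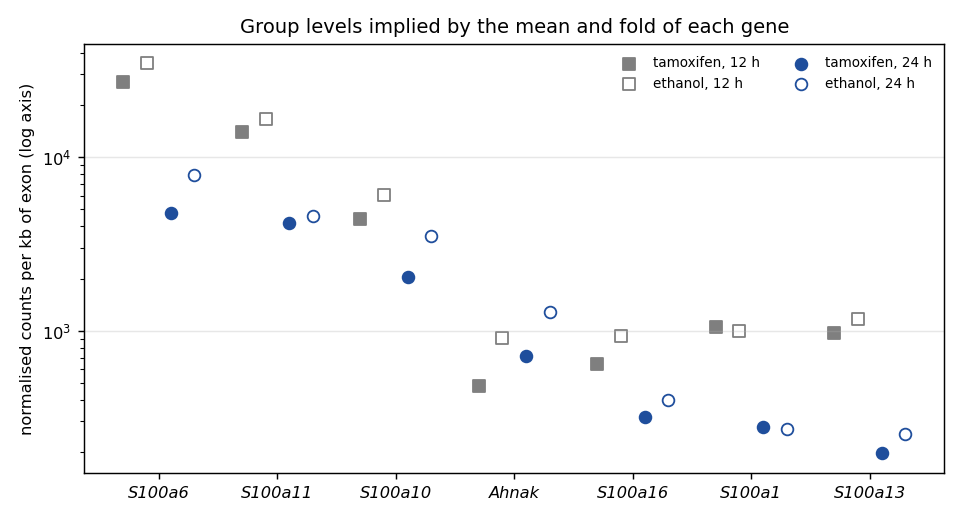
Normalised counts per kb of merged exon (log axis) in tamoxifen (filled) and ethanol (open) cells at 12 h (squares) and 24 h (circles), computed from the mean and the fold of each gene. S100a6 stands at 4747 in tamoxifen and 7873 in ethanol cells at 24 h, well below its 12 h values, while Ahnak is higher at 24 h in both. Levels between the times also moved with exon length over genes with a mean of at least 100 at either time.

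The levels of these genes also differed between the times. As a share of all normalised counts, S100a6 was 4.10 times as high at 12 h as at 24 h, and S100a13 4.01 times. The ratios of 12 h over 24 h were 3.20 for S100a1, 2.94 for S100a11, 1.82 for S100a16 and 1.57 for S100a10. Ahnak went the other way, 1.76 times as high at 24 h as at 12 h. The times were normalised separately and each has libraries of its own, so time and any difference in library making cannot be told apart, and no test was possible. Over the 9378 of 9719 genes that had a length and a mean of at least 100 at either time, the shift moved with exon length. The median log2 level at 24 h over 12 h was -0.88 for 141 genes under 1 kb of exon, -0.62 for 868 genes of 1 to 2 kb, 0.04 for 3757 genes of 4 to 8 kb and 0.69 for 215 genes of at least 16 kb. Within their length classes S100a6 lay at the 1.84th percentile and S100a13 at the 4.96th, against 11.3 for S100a1, 13.5 for S100a11, 33.3 for S100a16, 47.4 for S100a10 and 61.9 for Ahnak. The part of length in these shifts was not tested.

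**Figure D4:**
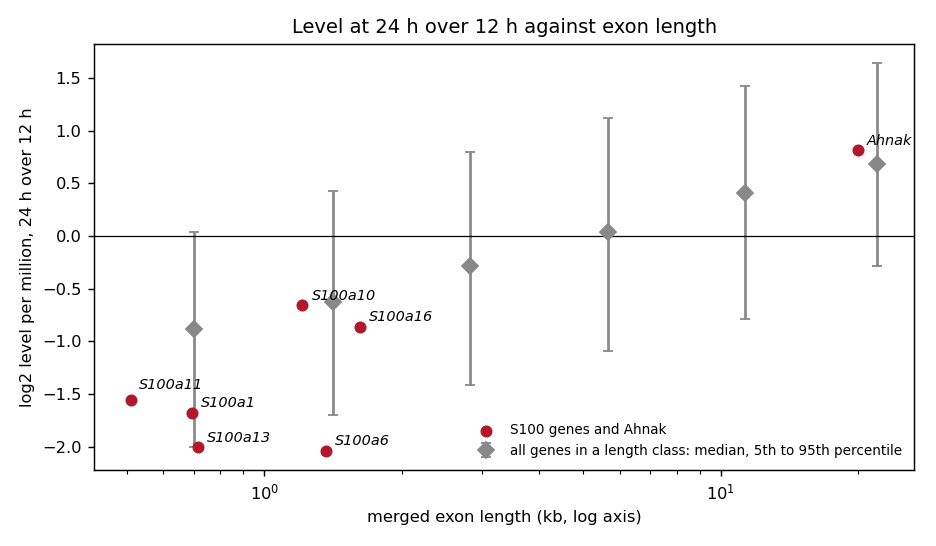
Log2 share of all normalised counts at 24 h over that at 12 h against merged exon length (kb, log axis); grey diamonds give the median of all genes in each of 6 length classes, with bars from the 5th to the 95th percentile, and red points the set. The medians climb from -0.88 in the shortest to 0.69 in the longest class, S100a10, S100a16 and Ahnak lie near them, and S100a6 lies below the 5th percentile of its class.

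The rest of the S100 family was mostly silent. Of the 10 other family genes listed, 4 had an adjusted p at 12 h and 3 at 24 h, and 0 were called by the authors' Wald test at either time, with 1 under an unadjusted p of 0.05 at each. Of all genes 0.943% were called at 12 h and 12.4% at 24 h, so 0 among so few is near the background. The gene under the unadjusted threshold was S100a4, a binding partner of non-muscle myosin, whose reads may be shared with the overlapping Gm42674, which covers 51.7% of its exon bases. S100a4 had 194 normalised counts in tamoxifen and 325 in ethanol cells at 12 h, and 15.1 in tamoxifen and 26.8 in ethanol cells at 24 h. Its folds in the authors' deposited table were -0.75 (SE 0.25, adjusted p = 0.172) and -0.83 (SE 0.32, adjusted p = 0.0722). The authors' deposited table gave -0.46 (SE 0.31) and -0.35 (SE 0.32) for S100a3, and -0.98 (SE 0.99) and -0.53 (SE 0.42) for S100a7a. Over the 17 listed family genes, 1 of 11 with an adjusted p was called at 12 h and 5 of 9 at 24 h, all of them lower and in the set. S100a2 was not on that list and had means of 0.865 and 0.371 normalised counts. S100b, S100z, S100g, S100a5, S100a8, S100a9 and S100a7l2 had means of at most 20.6 normalised counts. Of the fused-type S100 genes and the Ahnak relative Prx, 5 of 7 measured were at 0 at both times, 0 were called by the authors' Wald test, with 0 under an unadjusted p of 0.05, and Prx, named after its value was seen, stood at -0.07 (SE 0.16) at 24 h in the authors' deposited table.

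Neighbours on the chromosome were examined next. Within 100 kb of a member lie 27 other genes of the tables, of which 19 had an adjusted p at 12 h and 17 at 24 h. They include S100a2, S100a3, S100a4, S100a5, S100a7a, S100a8 and S100a9, which were also described with the family above. By the authors' Wald test 0 were called at either time, with 1 under an unadjusted p of 0.05 at 12 h and 2 at 24 h, S100a4 and B3gat3. With 0.943% of all genes called at 12 h and 12.4% at 24 h, a count of 0 among so few genes sets them little apart from the background. Neighbours named here were picked for position after their values were seen. Chtop, which encodes a chromatin protein and lies 1.54 kb from S100a1, stood at -0.05 (SE 0.05) at 24 h in the authors' deposited table. For Eef1g, a translation elongation factor gene 10.8 kb from Ahnak, the authors' deposited table gave -0.09 (SE 0.05), and for Tchh, the trichohyalin gene 71.4 kb from S100a11, -0.22 (SE 0.21). The median fold of the neighbours was -0.08 at 12 h and -0.02 at 24 h. Around S100a1 to S100a6 it was -0.22 and -0.06, and around Ahnak -0.09 and 0.0033.

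**Figure D5:**
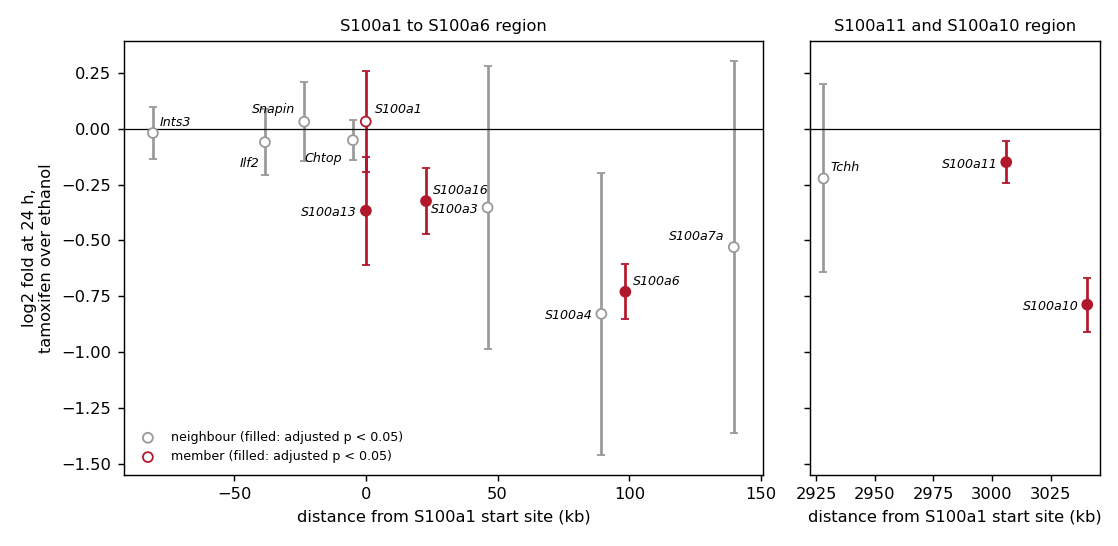
Log2 fold at 24 h with its 95% interval against the distance of each gene's start from that of S100a1 (kb), for genes of the set (red) and their neighbours on chromosome 3 with an adjusted p (grey). Filled points passed an adjusted p under 0.05; no neighbour is filled, and S100a1 and S100a13 share a position with folds of 0.03 and -0.37.

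Annexins, the partners of several S100 proteins at membranes, changed in both directions. Of 12 annexin genes, 11 had an adjusted p at 24 h, of which 4 fell and 2 rose, beside 6.52% and 5.9% of all genes. Beside Anxa2, Anxa8 fell by 1.94 (SE 0.09), Anxa3 by 0.57 (SE 0.05) and Anxa11 by 0.31 (SE 0.08), all in the authors' deposited table. Higher annexins, named after their values were seen, were Anxa6 at 0.49 (SE 0.14) and Anxa5 at 0.23 (SE 0.08). At 12 h Anxa8 and Anxa3 were the 2 called annexins of 11 with an adjusted p, both lower, beside 0.728% of all genes. The median fold of the annexins was -0.24 at 12 h and -0.0025 at 24 h. Among 36 binding partners and receptors of S100 proteins and Ahnak, 25 had an adjusted p at 24 h, and 4 fell and 2 rose, beside 12.4% of all genes called in either direction. Dlc1, whose product binds S100a10, was at 45.6% of ethanol, with a fold of -1.13 (SE 0.13) in the authors' deposited table. Cacnb2, a calcium channel subunit that binds Ahnak, fell by 0.68 (SE 0.12) at 24 h and by 0.83 (SE 0.20) at 12 h in the authors' deposited table. Ezr, which ties the membrane to actin, fell by 0.29 at both times (SE 0.08 at 12 h and 0.06 at 24 h) in the authors' deposited table. The actin gene Actg1 rose by 0.22 (SE 0.06) at 24 h in the same deposited table of the authors. Fgf1, released together with S100a13, fell by 0.41 (SE 0.12) at 24 h in the authors' deposited table, named after its value was seen. At 12 h 3 of 26 partners were called, beside 0.943% of all genes: Cacnb2, Ezr and the plasminogen activator gene Plat. Plat, named after its values were seen, stood at -0.52 (SE 0.10) at 12 h and -0.18 (SE 0.12) at 24 h in the authors' deposited table. Median folds of the partner list were -0.03 at 12 h and 0.02 at 24 h.

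Of 30 other EF-hand calcium sensors listed, 23 had an adjusted p at each time. At 12 h 0 were called by the authors' Wald test, with 1 under an unadjusted p of 0.05, beside 0.943% of all genes called. At 24 h 2 fell and 0 rose, where 6.52% and 5.9% of all genes did. The calpain small subunit gene Capns1 fell by 0.21 (SE 0.04) and the calumenin gene Calu by 0.23 (SE 0.05) at 24 h in the authors' deposited table. The median fold of the list was -0.0034 at 24 h.

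Genes with the most similar pair of folds were found by distance on the log2 scale over the 2 comparisons, among 1318 genes that were called at 24 h and had means of 50 or more at both times. Nearest to Ahnak were Sema3c, a secreted semaphorin, at -0.88 and -0.84, the Wnt ligand Wnt10a at -0.88 and -0.83, and the sphingosine kinase Sphk1 at -0.90 and -0.92, at 12 h and 24 h in the authors' deposited table. Nearest to S100a10 were Wnt4 at -0.49 and -0.77, Ildr2, which encodes a protein of tricellular junctions, at -0.51 and -0.85, and Rnf39 at -0.52 and -0.72 in the authors' deposited table. Nearest to S100a6 were Palmd at -0.31 and -0.69, the efflux transporter Abcg2 at -0.37 and -0.67, and the chromatin reader gene Mllt3 at -0.38 and -0.66 in the authors' deposited table. Distances ran from 0.05 to 0.09. With 2 values a gene, such nearness describes size and direction only.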

How the data were processed

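Libraries were single-end RNA-seq of total RNA, made with a TruSeq RNA v2 kit, which does not mark the strand, per the labels' protocols. HISAT2, DESeq2 and mm10 are named, without versions or roles, in the submitters' processing notes; the counting step and its annotation are not given in sources used here. Columns of the deposited tables, per the file headers, are baseMean, a signal that averages normalised counts over the libraries of a time, then log2 fold, SE, Wald score, p-value and adjusted p-value. The lowest mean with an adjusted p-value in the deposited tables is 1.84 at 12 h and 7.34 at 24 h. No value per library was used.

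The score equals fold over SE within 1.10e-13. Genes with 1 read fall on 7 lowest means at 12 h, 3 with negative and 4 with positive folds, which gives tamoxifen over ethanol for the 3 ethanol and 4 tamoxifen libraries; at 24 h the split is 4 and 4, and the direction there rests on Klf5. Calls use the authors' adjusted p under 0.05. The difference between times was fold at 24 h minus fold at 12 h over the root of summed squared SEs, with Benjamini-Hochberg adjustment over all genes. A run on simulated data drew its noise from the same SEs, with differences larger than those of the well-detected genes here. It checks the calculation only and does not show how well smaller differences are found. Group levels assume that the fold is the ratio of group means, with the mean weighted by library numbers. SEs were compared with a running median of 201 genes. Positions and lengths come from GENCODE M21, promoters from RefSeq GRCm38.p6. Symbols missing from the tables were matched through RefSeq synonyms. Tests used scipy 1.17.1 and numpy 2.4.6, tables pandas 2.3.3 and figures matplotlib 3.10.9, under Python 3.11.15.

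The genes and lists were chosen with earlier results of these data known. Named were all 9 genes, the other S100 genes, up to 4 called genes with the smallest p at 24 h per list and among neighbours within 100 kb, and the 3 most similar genes for each of the 3 genes with the smallest p. No molecular identifiers are named in the labels, so counting precision refers to reads, and intervals hold only what the SEs hold. The result for 1 marker gene is not reported here.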

Additional observations from a re-analysis of the deposited data

How the results depend on the processing

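Calls of the set were recomputed with adjustment over all genes with a p-value, over genes with a mean of at least 100, with folds centred on the median gene, with SEs raised to those of genes of similar mean, at thresholds of 0.01 and 0.1, and, added after the data were seen, with folds centred on the median of an exon length class. At 12 h the calls of Ahnak and S100a16 remained under all of these but the threshold of 0.01, which left 1, Ahnak. At 24 h between 4 and 6 genes were called, and Ahnak, S100a10, S100a6 and S100a16 were among them each time. Length centring and the threshold of 0.01 each ended the calls of S100a11 and S100a13, and raised SEs ended that of S100a11 (adjusted p = 0.0557). Of 78 recomputed results for single genes, 75 kept their direction and call, 3 kept direction only and 0 reversed. Only centring changed the fold itself. The other settings changed the SE or the adjusted p and could not reverse a direction. The difference between times called 0 of the set under each of 4 alternatives, with a smallest adjusted p of 0.459 when adjusted over genes called at 1 or both times and of at least 0.9997 under the other 3. With the longest transcript as length, 5 of 8 genes kept their rank of level per length at 12 h and 6 of 8 at 24 h; a window of 250 bases left CACCC in 4 genes. No paired analysis was possible because the tables hold no value per library, and leaving out each library could not be run for the same reason. The SEs at 12 h limit what the earlier time can show.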
